A study of Mus musculus with 14 samples.

Results

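Cdkn1c, Nnat, Ndn and Commd1 are 4 mouse genes that are expressed wholly or mostly from the copy inherited from 1 parent. They were chosen by name, with earlier results of these data for nicotine against saccharin known, so their values in that contrast are a description here and carry no test. Every region that the tables assign to 1 of the 4 symbols and that held values in both tables was taken, which gave 5 regions of 14881, for 4 genes of 10542 with a region. All 5 were tested in both tables. Commd1 had a wide and a narrow region, and the other genes had 1 each.

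The mark measured was trimethylation of histone H3 at lysine 4 (H3K4me3), by chromatin immunoprecipitation and sequencing in the cerebral cortex of mice of the C57BL/6J strain at an age of 3 months. The 4 groups were nicotine before and after birth (3 libraries), saccharin before and after birth (3 libraries), nicotine after birth only (4 libraries) and saccharin after birth only (4 libraries). Saccharin, the sweetener of the drinking solution, was the control, and each exposure had its own saccharin group and its own table of values. All libraries carry a single treatment text, which describes solution given to pregnant mice from conception, removal from the offspring at day 21 and rest until day 90. That text holds no postnatal-only course, which is named in the group labels and nowhere else. Sex, litter and whether a replicate is an animal of its own are not stated, so the spread between samples may be technical. SDs give that spread. Each SE comes from limma, which draws the variance of a region toward the common trend over regions, so it does not measure that region's own spread. At Nnat after birth only the SE was 0.41 with a residual SD of 0.066. At the wide Commd1 region before and after birth the SE was 0.25 with a residual SD of 0.54. The tissue was taken whole, so fewer cells with the mark and less mark per cell cannot be told apart. Nor do the values say which parental copy carried the mark.

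Values are a signal, which is a read count per region already adjusted by the submitters, and raw depth is unknown. Summed signal ran from 1445810 to 2372855 per pre- and postnatal library (n = 6) and from 2004918 to 2489860 per postnatal library (n = 8). Postnatal libraries 1 and 2 of each group, and libraries 3 and 4, differed by about as much as counting noise (variance ratio 0.985 to 1.08, against 1.94 to 2.6 for other pairs of a group). The mean of each pair was used as 1 sample, so postnatal groups have n = 2. 15 regions with a mean over 3000 in the postnatal libraries took 19.1% to 49.7% of the signal in pre- and postnatal libraries and 8.3% to 25.5% in postnatal ones. The cortex label was checked on 15 neuronal marker genes, of which 11 had a region. Their summed signal was 797.7 to 978.3 with nicotine and 840.9 to 930.8 with saccharin before and after birth, and 1251 to 1328 with nicotine and 1286 to 1292 with saccharin after birth only.

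Genomic imprinting silences the maternal or the paternal copy of a gene through DNA methylation set in the egg or the sperm. H3K4me3 sits at the start of active genes, and at imprinted promoters it is known to favour the copy that is free of DNA methylation. Many imprinted genes act in growth and in the brain. Cdkn1c encodes the cell cycle inhibitor p57Kip2 and is expressed from the maternal copy. Nnat encodes neuronatin, a small membrane protein of the endoplasmic reticulum, and is expressed from the paternal copy. Ndn encodes necdin, a growth suppressor of neurons, is paternally expressed and is among the genes lost in Prader-Willi syndrome in humans. Commd1 encodes a regulator of copper export and of NF-kB, and in mouse brain is expressed mostly from the maternal copy. In the RefSeq annotation (assembly GRCm38.p6) Nnat lies inside Blcap, and Zrsr1, a paternally expressed retrogene, lies inside Commd1. Neither Blcap nor Zrsr1 carried a region under its symbol. The long noncoding RNA gene Gm32061 contains Ndn, and it carried none either.

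The promoter sequences are shown because H3K4me3 marks promoters and because 3 of the 4 windows hold a common stretch. RefSeq windows (GRCm38.p6, from 250 bases before to 50 bases after the start) were found for 3 of the 4 genes, with 2 starts for Commd1 that lie 9418 bp apart. Capitals mark CGCATGCGCA, the longest run of letters shared by the windows of Nnat, Ndn and the internal Commd1 start, on either strand.
Nnat (chr2:157559828-157560127, plus strand): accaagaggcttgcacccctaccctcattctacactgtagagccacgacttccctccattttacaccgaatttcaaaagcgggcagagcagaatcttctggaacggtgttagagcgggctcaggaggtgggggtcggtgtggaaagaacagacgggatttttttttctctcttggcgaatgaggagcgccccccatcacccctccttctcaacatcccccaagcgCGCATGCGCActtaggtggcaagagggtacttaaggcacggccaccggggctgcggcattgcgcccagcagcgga
Ndn (chr7:62348027-62348326, plus strand): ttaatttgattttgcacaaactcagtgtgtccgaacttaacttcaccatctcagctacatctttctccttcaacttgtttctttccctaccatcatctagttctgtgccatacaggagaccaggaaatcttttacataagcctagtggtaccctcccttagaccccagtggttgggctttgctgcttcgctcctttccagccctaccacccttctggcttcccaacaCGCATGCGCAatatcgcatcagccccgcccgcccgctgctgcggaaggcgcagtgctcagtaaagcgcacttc
Commd1 internal start (chr11:22972817-22973116, minus strand): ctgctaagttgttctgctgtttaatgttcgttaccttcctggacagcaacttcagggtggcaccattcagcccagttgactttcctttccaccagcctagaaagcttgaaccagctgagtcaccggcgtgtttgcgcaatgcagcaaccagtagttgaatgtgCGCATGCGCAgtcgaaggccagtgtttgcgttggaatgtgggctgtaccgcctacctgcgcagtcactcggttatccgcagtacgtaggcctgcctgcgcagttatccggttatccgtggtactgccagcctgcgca
Commd1 upstream start (chr11:22982235-22982534, minus strand): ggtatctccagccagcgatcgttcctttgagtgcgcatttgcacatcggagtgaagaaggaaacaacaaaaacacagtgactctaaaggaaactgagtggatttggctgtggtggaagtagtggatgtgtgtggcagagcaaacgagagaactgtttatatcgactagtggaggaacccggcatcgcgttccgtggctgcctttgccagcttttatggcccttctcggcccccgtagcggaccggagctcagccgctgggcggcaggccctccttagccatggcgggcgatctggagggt
The run begins 25 bases before the start of Nnat, 23 bases before that of Ndn and 87 bases before the internal start of Commd1. The upstream Commd1 window does not hold it.

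The run was found after the windows were seen. It was defined as the longest one shared by the windows of Nnat, Ndn and the internal Commd1 start, so its presence in them was fixed. It was present in 330 of 32841 RefSeq windows (1.005%), in 198 of 9621 windows of genes in the tables (2.058%) and in 3 of 54 windows of the imprinted genes described below, which are those of Nnat, Ndn and Commd1 themselves. The upstream Commd1 window had 18 CpG dinucleotides, the internal Commd1 window 17, the Nnat window 17 and the Ndn window 11, against a median of 21 in windows of genes in the tables and 7 in all windows. All motifs were searched on both strands. The letters GGGCGG occurred in the Ndn window and in the upstream Commd1 window, and in 64.754% of windows of genes in the tables. CCAAT was in none of the 4 windows, against 37.273% of windows of genes in the tables. TATAAA occurred in the upstream Commd1 window on the strand opposite to the one printed, where it reads TTTATA (7.099% of the same windows). GCCAT, the core of YY1-type sites, was in the Ndn window and in the upstream Commd1 window (36.919%). The regions are on build mm9 and the windows on another build, so no window was placed inside a region.

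On build mm9 the region of Cdkn1c lay on chromosome 7 from 150644918 to 150647606, that of Ndn on chromosome 7 from 69493023 to 69494066 and that of Nnat on chromosome 2 from 157385387 to 157386635. The wide Commd1 region lay on chromosome 11 from 22871736 to 22874808 and the narrow one from 22881587 to 22882826, with 6779 bp between them. The tables name a gene for each region and do not say whether it is exonic or intronic. The centres of the 2 Commd1 regions lie 8934 bp apart, beside the 9418 bp between the 2 Commd1 starts. Zrsr1 lies inside Commd1 and has no region of its own. Which start, or which of the 2 genes, a Commd1 region marks was not tested. Signal grows with width, so levels between regions are compared per kb. In the pre- and postnatal table the wide Commd1 region had 44.66 per kb, the narrow one 24.41, Cdkn1c 14.69, Nnat 12.6 and Ndn 10.14, against a median of 32.35 per kb over all regions. In the postnatal table the order was the narrow Commd1 region (33.45 per kb), the wide one (26.45), Cdkn1c (24.36), Ndn (18.13) and Nnat (13.27), against a median of 49.5. Nnat and Ndn were thus among the weakly marked regions in both tables, at percentiles 12.75 and 6.31 of the total signal per region before and after birth, and 9.80 and 11.9 after birth only.

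**Figure D1:**
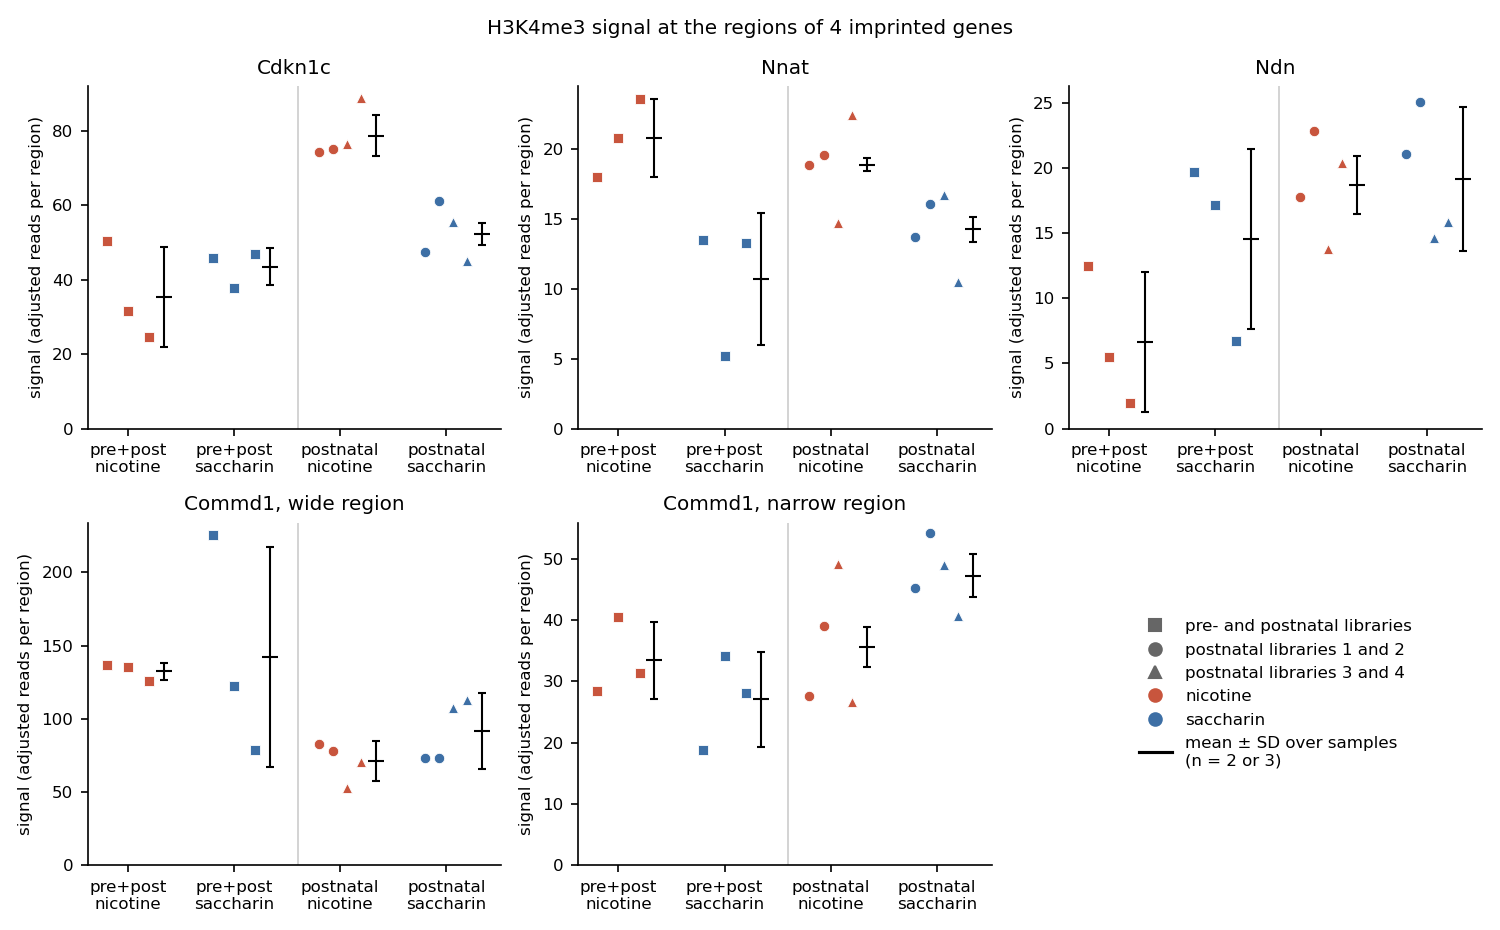
Signal (adjusted reads per region, linear axis from 0) at the 5 regions, with 1 point per library, nicotine left of saccharin within each exposure, and the mean ± SD over samples (n = 3 per pre- and postnatal group, n = 2 averaged pairs per postnatal group). Nnat libraries of the pre- and postnatal nicotine group sit between 18.0 and 23.6, above all 3 of its saccharin libraries, and saccharin library 1 stands apart at 225.4 in the wide Commd1 region.

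Nnat lay higher with nicotine in both exposures, by values that did not pass the test. Before and after birth its signal was 18.0, 20.8 and 23.6 in nicotine libraries 1, 3 and 4, against 13.5, 5.22 and 13.3 in saccharin libraries 1 to 3. All 3 nicotine libraries lay above all 3 saccharin libraries, and saccharin library 2 was the lowest of the 6. The means were 20.8 ± 2.80 in nicotine samples and 10.7 ± 4.72 in saccharin samples (SD, n = 3 per group), which differ by 0.99 ± 0.47 (SE) on the log2(signal + 1) scale. Without saccharin library 2 the difference was 0.59. After birth only the signal was 18.8, 19.6, 14.7 and 22.4 in nicotine libraries 1 to 4, against 13.7, 16.1, 16.7 and 10.5 in saccharin libraries 1 to 4. Single libraries overlapped, whereas the averaged nicotine samples (19.2 and 18.55) lay above the saccharin samples (14.88 and 13.59). The means were 18.9 ± 0.46 in nicotine samples and 14.2 ± 0.91 in saccharin samples (SD, n = 2 per group), which differ on the log2 scale by 0.38 ± 0.41 (SE).

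Ndn lay lower with nicotine in the pre- and postnatal exposure and showed almost no difference after birth only. Before and after birth its signal was 12.4, 5.49 and 1.93 in nicotine libraries 1, 3 and 4, against 19.7, 17.2 and 6.74 in saccharin libraries 1 to 3. The groups overlapped, since nicotine library 1 stood above saccharin library 3. The means were 6.62 ± 5.35 in nicotine samples and 14.5 ± 6.87 in saccharin samples (SD, n = 3 per group), which differ on the log2 scale by -1.17 ± 0.64 (SE). This was -0.61 without nicotine library 4 and -1.71 without nicotine library 1. The spread between libraries of a group was wide here: the residual SD of Ndn stood at percentile 96.83 of all regions of the table. After birth only the signal was 17.7, 22.8, 13.8 and 20.4 in nicotine libraries 1 to 4, against 21.0, 25.1, 14.6 and 15.9 in saccharin libraries 1 to 4. The log2 difference was -0.01 ± 0.40 (SE, n = 2 each), and its sign changed with the normalization and with the sample left out. Values this low rest on few adjusted reads.

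Cdkn1c took opposite signs in the exposures. Before and after birth its signal was 50.4, 31.5 and 24.5 in nicotine libraries 1, 3 and 4, against 45.8, 37.8 and 47.0 in saccharin libraries 1 to 3. Nicotine library 1 was the highest of the 6 and nicotine libraries 3 and 4 the lowest, so the groups overlapped. The means were 35.5 ± 13.4 in nicotine samples and 43.5 ± 5.01 in saccharin samples (SD, n = 3 per group), which differ on the log2 scale by -0.35 ± 0.30 (SE), which was -0.12 without nicotine library 4 and -0.62 without nicotine library 1. After birth only it was 74.4, 75.1, 76.4 and 88.7 in nicotine libraries 1 to 4, against 47.5, 61.2, 55.4 and 45.1 in saccharin libraries 1 to 4. The averaged nicotine samples (74.75 and 82.59) lay above the saccharin samples (54.35 and 50.26), a pattern that 15.0% of all regions had. The means were 78.7 ± 5.54 in nicotine samples and 52.3 ± 2.89 in saccharin samples (SD, n = 2 per group), which differ on the log2 scale by 0.58 ± 0.20 (SE). The pre- and postnatal difference minus the postnatal one was -0.92 ± 0.41 (SE) on the log2 scale.

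Commd1 gave values of both signs, and neither of its regions passed the test. In the wide region the signal before and after birth was 136.5, 135.0 and 125.6 in nicotine libraries 1, 3 and 4, against 225.4, 122.1 and 78.7 in saccharin libraries 1 to 3. The nicotine libraries lay close together, and saccharin libraries 1 and 3 stood above and below all of them. The log2 difference was 0.03 ± 0.25 (SE, n = 3 each), and it was 0.43 without saccharin library 1 and -0.33 without saccharin library 3. After birth only the wide region had 82.9, 78.1, 52.4 and 70.4 in nicotine libraries 1 to 4, against 72.9, 73.3, 107.4 and 112.7 in saccharin libraries 1 to 4. The averaged samples overlapped (nicotine 80.49 and 61.39, saccharin 73.11 and 110.0), with a log2 difference of -0.35 ± 0.21 (SE, n = 2 each). Without saccharin libraries 3 and 4 it was -0.06, without saccharin libraries 1 and 2 it was -0.64, and without nicotine pairs 1 and 2 or 3 and 4 it was -0.54 and -0.16. The narrow region had 28.4, 40.5 and 31.4 in nicotine libraries 1, 3 and 4 before and after birth, against 18.8, 34.2 and 28.1 in saccharin libraries 1 to 3, with overlap (log2 difference 0.32 ± 0.33). This was 0.09 without saccharin library 1, 0.50 without saccharin library 2 and 0.18 without nicotine library 3. After birth only it had 27.6, 39.0, 49.2 and 26.6 in nicotine libraries 1 to 4, against 45.3, 54.2, 48.9 and 40.7 in saccharin libraries 1 to 4. The averaged nicotine samples (33.32 and 37.88) lay below the saccharin samples (49.76 and 44.8), with a log2 difference of -0.40 ± 0.26.

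**Figure D2:**
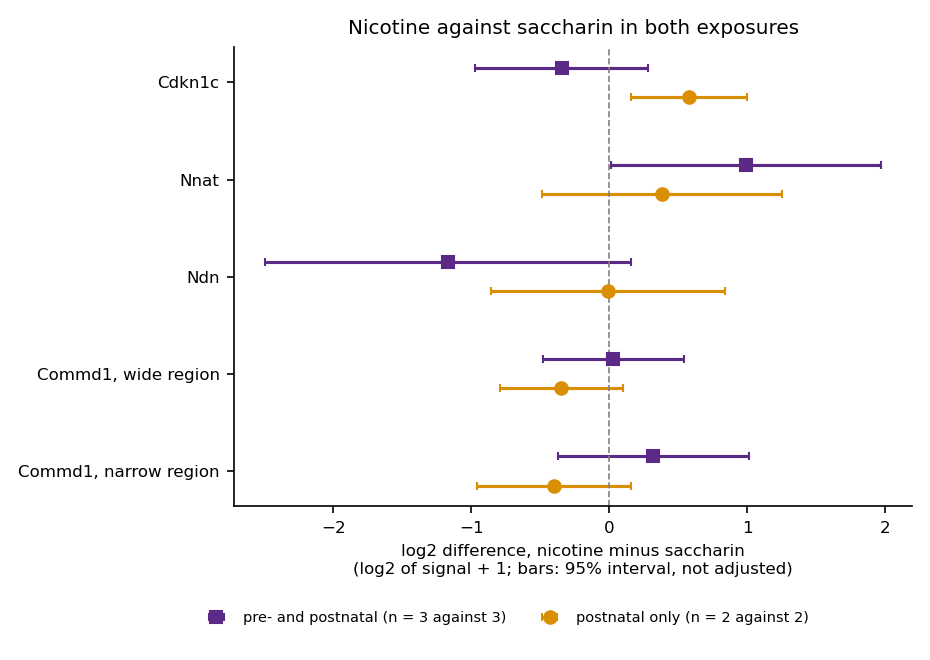
Log2 differences, nicotine minus saccharin, at the 5 regions in the pre- and postnatal exposure (squares, n = 3 against 3) and the postnatal-only exposure (circles, n = 2 against 2), with unadjusted 95% intervals from limma. The largest positive value is that of Nnat before and after birth (0.99) and the largest negative one that of Ndn (-1.17).

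None of the 5 regions passed in either exposure after Benjamini-Hochberg adjustment over the whole table in limma, as 0% of regions passed in either. At an unadjusted p under 0.05 there were 534 of 14879 regions (3.59%) before and after birth, 1.72% with nicotine higher, Nnat among these. After birth only there were 281 of 14873 (1.89%), 0.961% with nicotine higher, Cdkn1c among these. Groups did not overlap at 1 of the 5 regions before and after birth, Nnat with nicotine higher, where 8.95% of all regions did not overlap and 4.49% had that direction. After birth only they did not overlap at 3 regions, against 29.1% of all regions: nicotine was higher at Cdkn1c and Nnat (15.0% of all regions) and lower at the narrow Commd1 region (14.0%). Since these genes were chosen with the contrast known, nothing is read from these counts. The difference between the exposures, taken in 1 limma model over all 10 samples, also passed at none of the 5 regions and at 0% of all regions. At an unadjusted p under 0.05 were 219 of 14871 regions (1.47%), 0.746% with the lower value before and after birth, Cdkn1c among these. The difference between the exposures was 0.61 ± 0.65 at Nnat, -1.16 ± 0.87 at Ndn, 0.38 ± 0.42 at the wide and 0.72 ± 0.45 at the narrow Commd1 region (log2, SE). With 1 sample left out it ran from 0.205 (without pre- and postnatal saccharin library 2) to 0.815 at Nnat and from -1.7 to -0.601 at Ndn (without pre- and postnatal nicotine libraries 1 and 4). At the wide Commd1 region it ran from 0.0221 to 0.775 (without pre- and postnatal saccharin libraries 3 and 1), at the narrow one from 0.489 to 0.904 and at Cdkn1c from -1.2 to -0.697. The median region had an unadjusted 95% interval of ± 0.536 before and after birth and ± 0.386 after birth only. A smaller difference at such a region does not reach an unadjusted p under 0.05 in limma. The adjusted threshold asks for a larger difference than that.

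A measure that did not enter the choice of genes was the fraction of each library taken by the 15 strongest regions, given above, which split the postnatal samples across treatment. The high class held the averages of nicotine libraries 1 and 2 (25.2%) and of saccharin libraries 3 and 4 (18.68%), and the low class those of nicotine libraries 3 and 4 (10.04%) and saccharin libraries 1 and 2 (8.473%). The wide Commd1 region was higher in the high class, with 80.49 and 110.0, against 61.39 and 73.11 in the low class, without overlap, a pattern that 24.2% of all regions had. This was a log2 difference of 0.48 ± 0.15 (SE), adjusted p = 0.0350 in limma with treatment as a second term. With 1 residual degree of freedom that fit drew each variance from the common trend over regions, so this SE does not measure the spread of Commd1 itself. The region no longer passed under quantile normalization (0.49, adjusted p = 0.0706) and passed with a pseudocount of 5 (0.46, adjusted p = 0.0388). Of the 5 regions it was the 1 that passed, where 5.92% of all regions did. Narrow Commd1 (-0.16, adjusted p = 0.747), Cdkn1c (-0.13, adjusted p = 0.757), Ndn (-0.17, adjusted p = 0.827) and Nnat (-0.04, adjusted p = 0.967) did not pass in the same limma fit. Within the classes the nicotine minus saccharin difference at Cdkn1c was 0.56 in the high and 0.59 in the low class, and at Nnat 0.47 and 0.30. At Ndn it was 0.39 in the high class and -0.41 in the low class. At the wide Commd1 region it was -0.45 in the high class and -0.25 in the low class, and at the narrow one -0.42 and -0.38.

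The wide Commd1 region also stood at a different rank in the 2 tables, a pattern noticed after its values were seen and given without a test. By its mean it was at percentile 83.89 of all regions in the pre- and postnatal table and at percentile 49.73 in the postnatal table, a shift of 34.15. 48 of 14881 regions (0.323%) shifted up by as much or more, and the median region shifted by 3.56 in either direction. The shift was 36.21 in nicotine samples alone and 32.5 in saccharin samples alone. By library it stood at percentiles 63.86 to 96.47 in the pre- and postnatal table (median 81.37, n = 6), above the 37.86 to 60.04 of the postnatal table (median 47.97, n = 8). That order of all libraries was seen at 214 regions (1.44%). The libraries of both tables overlapped in rank at the other 4 regions, whose shifts were -0.23 at narrow Commd1, 2.95 at Nnat, -5.06 at Cdkn1c and -5.59 at Ndn.

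Seen against the narrow region of the same gene, the wide region was the stronger per kb in every pre- and postnatal library. Its ratio to the narrow region was 1.94, 1.344 and 1.613 in nicotine libraries 1, 3 and 4 and 4.832, 1.441 and 1.127 in saccharin libraries 1 to 3. In single postnatal libraries 1 to 4 it was 1.212, 0.8065, 0.4296 and 1.068 with nicotine and 0.649, 0.5455, 0.8847 and 1.118 with saccharin, so 3 of the 8 were above 1 and the libraries of both tables overlapped (postnatal nicotine library 1 above pre- and postnatal saccharin library 3). In the averaged postnatal samples it was 0.9744 and 0.6536 with nicotine and 0.5926 and 0.9906 with saccharin. Both tables were adjusted separately, and the exposure, its batch of libraries and that adjustment cannot be told apart here. The flanking regions kept their ranks: B3gnt2, a glycosyltransferase gene 111033 bp away, stood at percentiles 87.12 and 86.41 in the pre- and postnatal and the postnatal table, and Cct4, a chaperonin subunit gene 6978 bp beyond the narrow region, at 61.9 and 61.57.

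**Figure D3:**
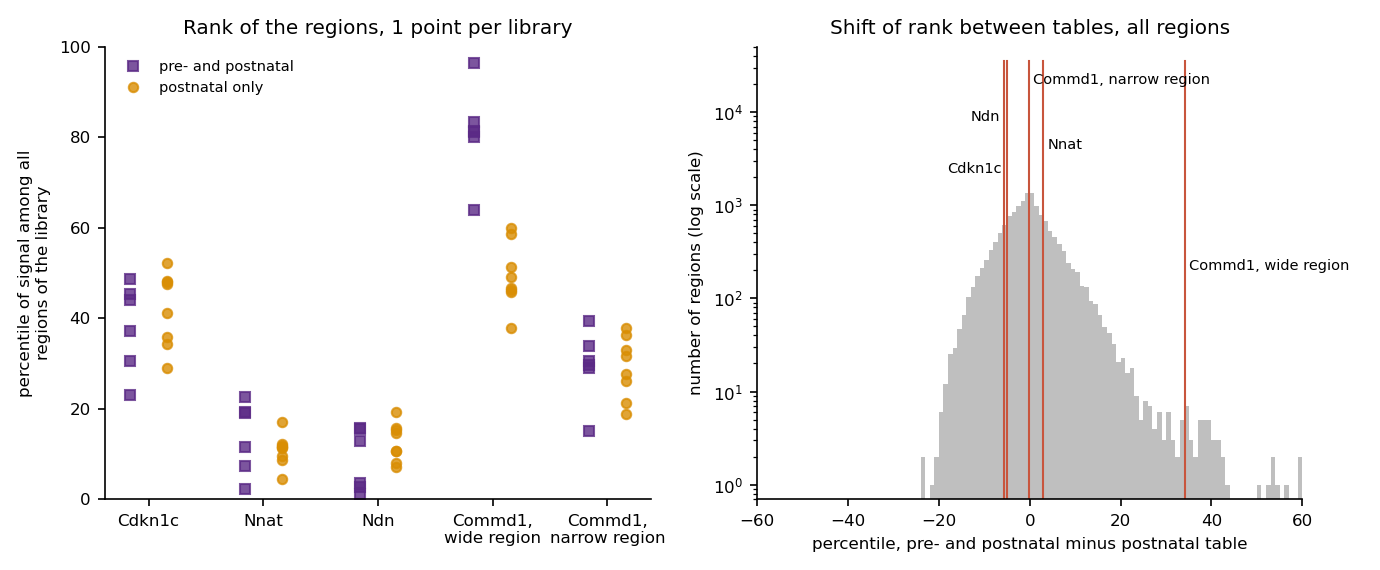
Left, percentile of signal among all regions of the same library, 1 point per library, pre- and postnatal left of postnatal only; right, the shift of rank between the tables for all 14881 regions (log scale of region numbers) with the 5 regions marked by lines. The wide Commd1 region lies at a shift of 34.15, and the other 4 regions between -5.59 and 2.95.

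Regions around these genes had values of both signs, and none passed the test. Ndn lies in a sparse domain with 4 other regions within 1 Mb, among them the paternally expressed Mkrn3, a ubiquitin ligase gene 70127 bp away, and Peg12 at 114107 bp. Mkrn3 had 20.5 ± 3.88 with nicotine and 22.5 ± 8.33 with saccharin before and after birth (SD, n = 3 per group), and 24.2 ± 2.75 and 33.2 ± 9.64 after birth only (SD, n = 2 per group). Its log2 differences were -0.09 and -0.42. The Mkrn3 samples did not overlap after birth only, with nicotine lower, as at 14.0% of all regions. Peg12 differed by -0.29 before and after birth and by -0.16 after birth only, with overlap in both. The nearest region on the other side of Ndn, 138302 bp away and without a gene in the tables (chromosome 7, 69353803 to 69354721), differed by -0.02 ± 0.54 before and after birth and by 0.43 ± 0.56 after birth only (log2, SE).

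Within 1 Mb of Cdkn1c lay 10 regions of 8 other imprinted genes. Before and after birth their log2 differences ran from -0.36 at Kcnq1 region 1 to 0.47 at Kcnq1 region 2, a potassium channel gene that hosts the imprinting centre of this domain. After birth only they ran from -0.39 at Tssc4 to 0.46 at Kcnq1 region 3, and Igf2, a paternally expressed growth factor, had 0.37. It held 38.2 ± 2.60 with nicotine against 29.4 ± 0.77 with saccharin after birth only (SD, n = 2 per group), without overlap of the samples. After birth only 15.0% of all regions did not overlap with nicotine higher and 14.0% with nicotine lower. Cd81, Nap1l4, Osbpl5, Dhcr7 and Ascl2 had values between -0.15 and 0.16 after birth only. Of these, Ascl2 did not overlap after birth only, with nicotine lower. None of the 10 regions passed. The nearest region after Cdkn1c, 2750 bp away and with no gene in the tables (chromosome 7, 150650356 to 150651538), held 3.91 ± 2.78 with nicotine and 12.0 ± 3.65 with saccharin before and after birth (SD, n = 3 per group), with a log2 difference of -1.56 ± 0.66 (SE, limma adjusted p = 0.987). Its libraries did not overlap before and after birth, with nicotine lower, as at 4.46% of all regions. It held 19 ± 3.33 with nicotine and 19.5 ± 0.03 with saccharin after birth only (SD, n = 2 per group). The nearest region before Cdkn1c, 12703 bp away and also without a gene (chromosome 7, 150630940 to 150632215), lay higher with nicotine, by 0.15 ± 0.41 before and after birth and by 0.33 ± 0.31 after birth only (log2, SE), without overlap after birth only, and did not pass.

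Nnat is flanked at 4497 bp by a far stronger region with no gene in the tables (chromosome 2, 157391132 to 157393107). That region held 143.0 ± 28.2 with nicotine and 141.0 ± 23.0 with saccharin before and after birth (SD, n = 3 per group), and 231.2 ± 17.0 and 246.2 ± 9.44 after birth only (SD, n = 2 per group). Its log2 differences were 0.01 ± 0.18 and -0.09 ± 0.11 (SE), against the 0.99 ± 0.47 and 0.38 ± 0.41 of Nnat itself. On the other side the nearest region, 101964 bp away at Src, a tyrosine kinase gene, differed by 0.03 and 0.27, without overlap after birth only (15.0% of all regions with nicotine higher).

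Of 67 genes on a list of mouse imprinted genes, 40 had a region, and the strongest region stood for each gene. For Commd1, counted as maternally expressed, this was the wide region. Before and after birth 14 of the 40 lay higher and 26 lower with nicotine, with a median log2 difference of -0.08 against 0.00 over all regions. After birth only 16 lay higher and 24 lower, with a median of -0.02 against 0.00 over all regions. None passed the adjusted threshold of limma in either exposure, and at an unadjusted p under 0.05 there was 1 gene before and after birth, Nnat, and there were 2 after birth only, Cdkn1c and Ppp1r9a. All were higher with nicotine, as were 1.72% and 0.961% of all regions, and Nnat and Cdkn1c were chosen with this contrast known. Samples did not overlap at 2 genes with nicotine higher, Nnat among them, and at 0 with nicotine lower before and after birth, where 4.49% and 4.46% of all regions had these patterns. After birth only they did not overlap at 8 genes with nicotine higher and 4 with nicotine lower, against 15.0% and 14.0% of all regions. Genes expressed from the paternal copy had medians of -0.10 before and after birth and -0.01 after birth only (n = 17), and those expressed from the maternal copy -0.03 and -0.08 (n = 21).

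Several of the 4 genes stood at the edges of this list, and they were chosen with this contrast known. Nnat was the highest and Ndn the lowest of the 40 before and after birth, with Cdkn1c 6th from the lowest and Commd1 29th from the lowest. After birth only Cdkn1c was the highest and Nnat next to it, Commd1 was 4th from the lowest and Ndn 23rd from the lowest. The genes just inside these positions were Kcnq1 (0.47), second highest before and after birth, and Calcr (-0.68), second lowest. After birth only Igf2 (0.37) came after Nnat, and Mkrn3 (-0.42), Tssc4 (-0.39) and Sgce (-0.36) lay below Commd1. Calcr, which encodes the calcitonin receptor, is itself weakly marked, with 3.92 ± 1.79 with nicotine and 6.66 ± 1.64 with saccharin before and after birth (SD, n = 3 per group). The 4 listed genes with the highest total signal per region before and after birth, not taken per kb, were Gnas, Ube3a, H13 and Nap1l4. Gnas, which encodes a G protein subunit, differed by -0.19 before and after birth and by 0.11 after birth only. Ube3a, a ubiquitin ligase gene, differed by 0.02 and -0.02, H13 by -0.06 and -0.10, and Nap1l4 by -0.12 and 0.16.

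**Figure D4:**
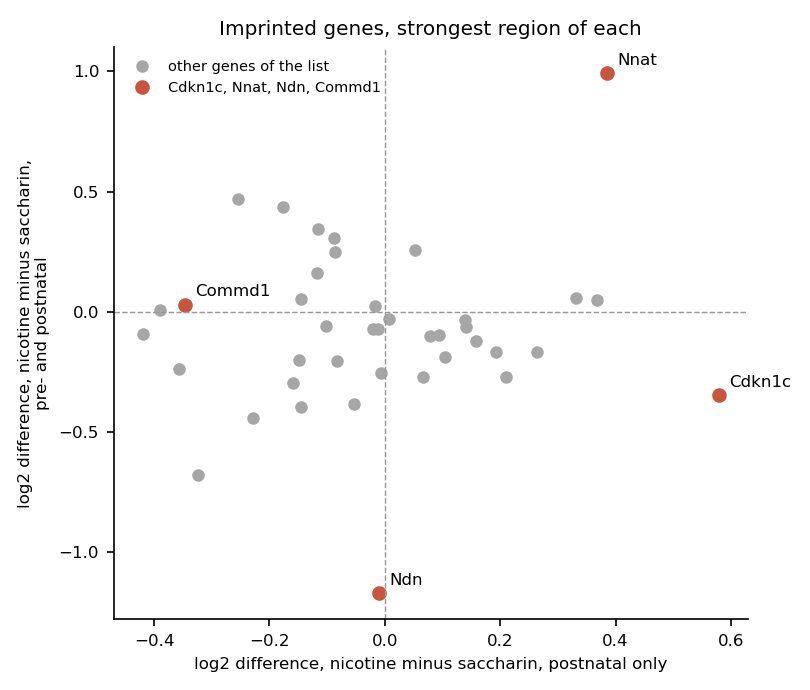
Log2 differences, nicotine minus saccharin, at the strongest region of each of 40 imprinted genes, postnatal only on the horizontal axis and pre- and postnatal on the vertical axis, with the 4 genes coloured. Nnat (0.38 and 0.99) lies at the upper right, Cdkn1c (0.58 and -0.35) at the right and Ndn (-0.01 and -1.17) at the bottom.

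Across the 10 samples, with each table centred on its own mean, the 4 genes did not vary as one. Pearson's r was -0.638 between Nnat and Ndn, 0.624 between Cdkn1c and Ndn, -0.142 between Nnat and Cdkn1c and -0.344 between the wide and narrow Commd1 regions. It was -0.611 between narrow Commd1 and Cdkn1c, and ran from -0.4 to 0.331 over the remaining pairs. These are descriptions over 10 samples, with the differences between treatment groups left in. The genes were chosen with those differences known, so the values of r partly restate that choice. The regions named next have the highest r of a search over many regions, so high values can arise by chance and carry no test. Among 9773 other regions with a mean of at least 20 in both tables, the most alike to Nnat were Cstf1, a subunit of the cleavage stimulation factor (r = 0.977), Zdhhc7, a palmitoyltransferase (0.951), and Kidins220, a scaffold of neurotrophin receptors (0.914). Those most alike to Ndn were Adam11 (0.96), Rasa4, an inhibitor of Ras signalling (0.949), and the kinesin Kif6 (0.938). For Cdkn1c they were B4galnt3 (0.924), the membrane skeleton gene Add3 (0.923) and Rasl11b (0.92), and for the wide Commd1 region Cyp26b1, which degrades retinoic acid (0.94), Mageh1 (0.928) and Yif1a (0.924).

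Marker genes of neighbouring tissue are given because Nnat and Ndn are known to be strongly expressed in the hypothalamus. Of 10 hypothalamic markers 6 had a region, and Agrp, Hcrt, Sim1 and Trh had none. Their summed signal was 77.43 to 113.1 with nicotine and 96.11 to 140.2 with saccharin before and after birth, with overlap, while Nnat was higher and Ndn lower with nicotine. After birth only it was 182.8 in both nicotine samples and 163.6 to 170.4 in saccharin samples, without overlap. Of single regions, 29.1% did not overlap after birth only and 8.95% before and after birth. Of 8 choroid plexus markers 3 had a region, and Ttr, Otx2, Folr1, Kcnj13 and Foxj1 had none. Their sum was 42.19 to 46.19 with nicotine and 49.42 to 55.68 with saccharin before and after birth, without overlap, and 64.22 to 69.61 and 55.6 to 76.02 after birth only, with overlap. Of 11 endothelial and mural markers 6 had a region. Their sums were 283.3 to 305.2 with nicotine and 321.7 to 352.5 with saccharin before and after birth, without overlap, and 486.6 to 493.7 and 473.9 to 507.1 after birth only, with overlap. The part of these cell types in the values of the 4 genes was not tested.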

How the data were processed

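H3K4me3 ChIP-seq values of 14 libraries were used. The authors deposited 1 table per exposure with a signal per region and library: read counts adjusted with edgeR (per the submitters' processing notes, version not given), not whole, each table adjusted on its own, on build mm9. For the aligner, the peak caller and the filters the sources used here give nothing. Per the labels' protocols, 50 mg of tissue was fixed in 1% formaldehyde, and libraries had 18 PCR cycles, fragments of 170 to 300 bp and 36 read cycles. Each table had 19203 rows, of which 14881 held values and 4322 were empty and left out. Counting intervals are left out, because raw depth is unknown.

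Regions whose signal reached 1 in a number of samples no smaller than the smaller group were tested in limma 3.58.1 with trend (R 4.3.3), on log2(signal + 1), two-sided, with Benjamini-Hochberg adjustment over all regions and a threshold of 0.05. Averaging of postnatal pairs rests on counting noise judged from adjusted values, a rough guide. The share class was treated as a technical split, with treatment as a covariate. The fits were tested on simulated data. The rule for named genes took all regions of the 4 genes, listed imprinted genes within 1 Mb, the nearest region on either side and the 3 most alike regions per gene; other genes of the imprinted list were named for their place beside the 4 after their values were seen. Members, lists and tests were chosen with earlier results of these data known. Alternatives were other normalizations, pseudocounts and filters, a fit without trend, 8 single libraries, replicate blocks, share terms and leaving out each sample. Names, overlaps and promoter windows come from RefSeq (GRCm38.p6), where transcripts of all 4 genes matched. The markers of all 11 cell type lists were summed; for striatum, thalamus, astrocytes, oligodendrocytes, microglia, meninges and blood they are given with the other observations. Python 3.11.15 with matplotlib 3.10.9 drew the figures.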

Additional observations from a re-analysis of the deposited data

How the results depend on the processing

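Of 234 values of the 5 regions under alternatives, 224 kept their direction and their side of the threshold, 9 reversed and 1 no longer passed. In the nicotine contrasts and in their difference 0% of all regions passed in the main fits. Keeping the side of the threshold therefore says little there. Fits without a filter or without trend also leave the difference itself unchanged. Nnat stayed positive, at 0.498 to 1.2 before and after birth and 0.312 to 0.47 after birth only. Cdkn1c stayed at -0.624 to -0.118 and 0.508 to 0.659, and Ndn before and after birth at -1.71 to -0.437. Ndn after birth only reversed to 0.0951 under quantile normalization and 0.0687 under cyclic loess, and ran from -0.294 to 0.273 with 1 sample left out. The wide Commd1 region before and after birth reversed to -0.009, -0.00213 and -0.0139 under quantile, cyclic loess and scaling normalization, and ran from -0.325 to 0.428 with 1 sample left out. Its difference between share classes was 0.486 and no longer passed under quantile normalization. Its rank shift was 40.25 by signal per kb and 29.19 to 37.66 with 1 sample left out; these shift settings were chosen after seeing the data. Calls over all regions after birth only were 0, with 0 to 31 when 1 sample was left out (7 without nicotine libraries 1 and 2, 31 without nicotine libraries 3 and 4), 9 with the share class as a term and 1 with the replicate block on averaged pairs. Before and after birth they were 0, with 0 to 16 when 1 sample was left out (16 without nicotine library 1) and 1 without trend. Calls between share classes were 881, and 401 under quantile normalization. The cause was not tested. Replicate numbers did not pair the samples: r between same-numbered deviations was -0.49 after birth only, and -0.103 and -0.083 for numbers 1 and 3 before and after birth, where the replicate block gave 0 calls. With 2 samples per group the crossed pairing must give the same r with the opposite sign (0.49), so it is no second observation. That crossed pairing is the share class, with its 9 calls.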

Other observations

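Other cell type lists gave these sums of signal over the measured genes, as ranges over samples. Of 10 oligodendrocyte markers 8 had a region, with 327.7 to 392.7 with nicotine and 339.0 to 356.2 with saccharin before and after birth, and 666.5 to 686.5 and 643.2 to 655.1 after birth only. The oligodendrocyte sums did not overlap after birth only and were higher with nicotine, a pattern that 15.0% of single regions had. Of 10 striatal markers 5 had a region (253.9 to 313.4 with nicotine and 270.6 to 329.7 with saccharin, then 516.8 to 568.0 and 506.4 to 524.8), and of 7 thalamic markers 5 (170.8 to 241.0 and 227.4 to 258.9, then 332.4 to 350.6 and 370.5 to 382.1). The thalamic sums did not overlap after birth only and were lower with nicotine, as were 14.0% of single regions. Of 9 astrocyte markers 3 had a region (201.1 to 269.5 with nicotine and 180.1 to 213.7 with saccharin, then 342.8 to 387.1 and 368.6 to 386.5), and of 8 meningeal markers 2 (59.79 to 91.6 and 82.16 to 86.32, then 101.8 to 115.3 and 88.18 to 109.4). Microglia had 1 of 8 (1.409 to 10.84 with nicotine and 6.365 to 11.39 with saccharin, then 5.458 to 6.382 and 2.097 to 5.961) and blood 1 of 6 (10.3 to 25.56 and 21.45 to 39.4, then 57.37 to 68.5 and 53.16 to 68.87). Their part in the values of the 4 genes was not tested.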
